A study of Homo sapiens with 3 samples.

Results

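The chemokine and interleukin genes were taken as the protein-coding genes of the RefSeq annotation of GRCh38 whose symbols are CXCL or CCL followed by digits, or IL followed by digits and at most 1 letter. The rule fits 87 symbols, of which CCL3L1 and CCL4L1 lie on scaffolds outside the primary chromosomes and were not placed. The 85 members described here, of 19839 protein-coding genes on chromosomes 1 to 22 and X, are 40 chemokines and 45 interleukin genes, and the symbol rule brings 6 receptor genes (IL4R, IL6R, IL7R, IL9R, IL21R and IL23R) into the second kind. The mark measured was lactylation of lysine 12 of histone H4 (H4K12la), mapped by CUT&Tag, a method that cuts and sequences chromatin where an antibody has guided a transposase. Untreated cells of a pair of established human renal carcinoma lines were profiled: 786-O, a line without functional VHL, and Caki-1, where VHL is intact. The data used here are 1 list of peaks for 786-O, from replicate 2, and 2 lists for Caki-1, from replicates 1 and 2. The other 786-O replicate was not used here, and the labels do not say whether the Caki-1 replicates were separate cultures.

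The lists hold 62777, 60760 and 67839 peaks in that order. No source used here gives the read depth, so a gene without a peak is one where none was called, and a library with more peaks cannot be told apart from a deeper one. Joining peaks of the 3 lists that overlap by at least 1 bp gave 116359 regions, of which 259 lie within 20 kb of a member's gene span. They hold 158 peaks of 786-O, 136 of Caki-1 replicate 1 and 153 of Caki-1 replicate 2, a peak shared by neighbouring members being counted a single time. The value of a peak is the authors' own, from a column without a header. Judged from its values only, it was read as a signal for 786-O and for Caki-1 replicate 1, and as a score for Caki-1 replicate 2. Values given in threes follow this order. These scales differ, so a value is read only through its percentile rank in its own list, where 100 is the highest. The allocation of 3 libraries to the lines has 3 labelings and a smallest p of 0.333, so no test between the lines was made, and each difference below is a description of these libraries.

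Chemokines are small secreted proteins that steer leukocytes along a gradient, and interleukins are secreted signals that act through paired receptor chains on leukocytes and, for several of them, on epithelium. Epithelial and tumour cells make some of them when NF-kappaB, AP-1 or STAT factors are active, and their promoters are switched on and off far more than those of housekeeping genes. Histone lactylation is an acyl mark that draws on lactate and is found at promoters and enhancers of active chromatin. Of genes used as markers of renal carcinoma cells, KRT8, KRT18 and VIM had a peak at a gene end in all 3 libraries, PAX8 in both Caki-1 libraries, and PAX2 in none. Of the leukocyte markers, PTPRC, CD3D, CD3E, MS4A1, LYZ and ITGAM had no such peak, and CD14 had one in each library. Of the endothelial markers, PECAM1 had none and CDH5 had one in Caki-1 replicate 1.

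The sequences that the results turn on are, first, the promoters of the 6 members grouped as neutrophil-attracting CXC chemokines (CXCL1, CXCL2, CXCL3, CXCL5, CXCL6 and CXCL8). These genes lie in a cluster of chromosome 4 with PF4V1, PF4 and PPBP among them, and carry the mark in unlike numbers of libraries. The other promoters are those of IL6, IL12A and IL7R, which carry it in all 3. Each is 300 bases long, from 250 before to 50 after the annotated start, 5′ to 3′ on the gene's own strand, from RefSeq (GRCh38.p14). Capitals mark the 3 motifs searched on both strands: GGANNTTCC, a form of the NF-kappaB site, TGANTCA, the AP-1 site, and TATAAA, the TATA box, or their reverse complements. No match overlapped a match of another motif.
CXCL1, chr4:73869143-73869442, plus strand: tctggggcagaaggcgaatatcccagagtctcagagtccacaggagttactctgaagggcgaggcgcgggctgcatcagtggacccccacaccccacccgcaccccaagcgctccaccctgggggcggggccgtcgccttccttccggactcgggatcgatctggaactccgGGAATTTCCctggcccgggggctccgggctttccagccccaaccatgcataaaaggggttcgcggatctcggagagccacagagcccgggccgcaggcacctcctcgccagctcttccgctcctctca
CXCL2, chr4:74099146-74099445, minus strand: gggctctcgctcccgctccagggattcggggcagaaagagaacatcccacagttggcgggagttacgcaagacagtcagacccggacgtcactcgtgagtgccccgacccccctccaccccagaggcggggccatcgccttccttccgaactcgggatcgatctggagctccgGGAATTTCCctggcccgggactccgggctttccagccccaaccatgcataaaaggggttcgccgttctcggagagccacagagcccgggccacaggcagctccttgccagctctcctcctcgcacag
CXCL3, chr4:74038640-74038939, minus strand: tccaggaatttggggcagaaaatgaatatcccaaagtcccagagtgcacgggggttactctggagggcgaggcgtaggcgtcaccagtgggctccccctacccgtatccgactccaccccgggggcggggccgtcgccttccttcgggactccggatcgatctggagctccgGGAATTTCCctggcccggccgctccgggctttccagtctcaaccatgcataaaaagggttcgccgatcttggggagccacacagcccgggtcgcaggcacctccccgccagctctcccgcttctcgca
CXCL5, chr4:73998628-73998927, minus strand: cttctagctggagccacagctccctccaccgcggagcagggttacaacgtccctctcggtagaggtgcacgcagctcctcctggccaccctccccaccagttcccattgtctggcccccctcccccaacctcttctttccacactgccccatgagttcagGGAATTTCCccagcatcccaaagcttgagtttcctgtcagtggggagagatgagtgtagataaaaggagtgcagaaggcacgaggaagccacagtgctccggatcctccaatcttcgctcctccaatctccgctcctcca
CXCL6, chr4:73836428-73836727, plus strand: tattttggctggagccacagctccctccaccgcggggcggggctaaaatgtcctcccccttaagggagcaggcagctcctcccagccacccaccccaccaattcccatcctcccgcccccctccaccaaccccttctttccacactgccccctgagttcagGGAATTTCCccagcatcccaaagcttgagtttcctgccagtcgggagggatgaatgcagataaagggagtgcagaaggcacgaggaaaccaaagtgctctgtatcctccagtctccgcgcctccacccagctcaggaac
CXCL8, chr4:73740319-73740618, plus strand: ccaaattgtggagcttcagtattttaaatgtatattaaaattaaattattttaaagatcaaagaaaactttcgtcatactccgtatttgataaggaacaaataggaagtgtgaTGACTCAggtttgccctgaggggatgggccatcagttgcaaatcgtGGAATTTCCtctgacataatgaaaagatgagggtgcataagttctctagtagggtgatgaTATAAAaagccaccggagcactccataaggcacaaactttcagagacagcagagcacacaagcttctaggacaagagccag
IL6, chr7:22726950-22727249, plus strand: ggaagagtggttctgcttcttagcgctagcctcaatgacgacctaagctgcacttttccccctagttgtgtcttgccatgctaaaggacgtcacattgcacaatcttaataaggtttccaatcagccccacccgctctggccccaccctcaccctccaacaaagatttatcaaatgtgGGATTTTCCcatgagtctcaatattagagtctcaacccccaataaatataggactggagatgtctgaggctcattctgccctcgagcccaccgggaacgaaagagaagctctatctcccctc
IL12A, chr3:159988585-159988884, plus strand: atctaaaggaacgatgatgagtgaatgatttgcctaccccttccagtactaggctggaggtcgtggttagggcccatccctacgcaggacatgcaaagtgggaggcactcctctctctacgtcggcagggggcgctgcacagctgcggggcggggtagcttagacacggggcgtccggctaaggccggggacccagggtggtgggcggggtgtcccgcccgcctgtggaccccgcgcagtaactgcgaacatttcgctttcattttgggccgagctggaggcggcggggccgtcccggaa
IL7R, chr5:35856641-35856940, plus strand: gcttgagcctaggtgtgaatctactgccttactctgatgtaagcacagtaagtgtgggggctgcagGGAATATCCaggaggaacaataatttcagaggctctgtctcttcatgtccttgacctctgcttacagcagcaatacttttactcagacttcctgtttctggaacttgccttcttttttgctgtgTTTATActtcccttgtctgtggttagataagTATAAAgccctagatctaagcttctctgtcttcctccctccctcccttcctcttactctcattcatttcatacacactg

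The ends of the chemokine and interleukin genes carried H4K12la peaks less often than those of protein-coding genes at large. A gene-end peak, one within 1 kb of either annotated end, was found at 28 of the 85 members in 786-O (32.9%), against 53% of all 19839 genes. In Caki-1 replicate 1 it was found at 20 members (23.5%), against 55.5%. In Caki-1 replicate 2 it was found at 23 members (27.1%), against 58%. All 3 libraries had one at 15 members (17.6%, 95% exact binomial interval 10.2 to 27.4), against 44.6%, and none had one at 51 members (60%), against 34.2%. The same order held within classes of gene length, which were added after seeing the data. Of members under 5 kb, 6 of 37 (16.2%) had one in all 3 libraries, against 24.2% of all genes of that length. From 5 to under 20 kb the count was 4 of 29 (13.8%), against 41.7%. At 20 kb and over it was 5 of 19 (26.3%), against 52%.

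**Figure D1:**
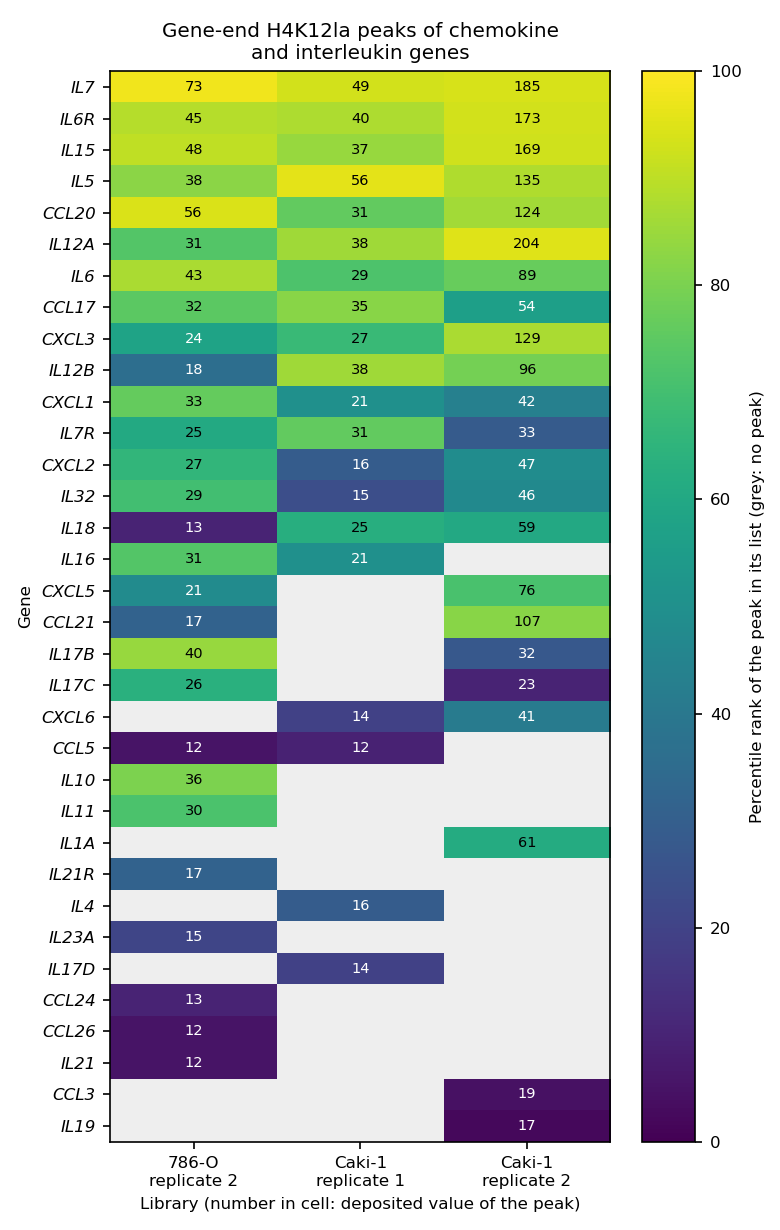
Highest gene-end peak of each of the 34 members with one in at least 1 library (rows) in the 3 libraries (columns). Colour gives the percentile rank of the peak in its own list, the number in a cell is the authors' value, and grey means no peak: the 15 upper rows are filled in all 3 columns, and IL10 and IL11 are filled in 786-O only.

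The 15 members with a gene-end peak in all 3 libraries were 10 interleukin and receptor genes (IL5, IL6, IL6R, IL7, IL7R, IL12A, IL12B, IL15, IL18 and IL32) and 5 chemokines (CCL17, CCL20, CXCL1, CXCL2 and CXCL3). IL7 and IL15, a pair of cytokines that keep lymphocytes alive, were among those of high rank. IL7 had signals of 73 (rank 97.8) and 49 (rank 93.3) with a score of 185 (rank 93.9). IL15 had signals of 48 and 37 (ranks 90.5 and 84.6) and a score of 169 (rank 92.6), at its lower end on chromosome 4. Both therefore ranked above 84 in every list.

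Among the receptors, IL6R, the ligand-binding chain for IL6, had signals of 45 and 40 with a score of 173, at ranks of 88.7, 87.7 and 93.0. Each of its 3 peaks covered the annotated start. IL7R, the chain that binds IL7, had signals of 25 and 31 with a score of 33, with ranks of 60.9, 76.2 and 28.8. Its peaks covered a promoter without a single CpG, the sequence printed above, which holds TATAAA 29 bases before the start. IL4R, which binds IL4 and IL13, had no gene-end peak. It carried a region in all 3 libraries inside the gene (chromosome 16, 27326833 to 27327538), with signals of 41 and 33 with a score of 82.

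In the family of IL6 and IL12, a gene-end peak was found in all 3 libraries at 3 of 7 genes and in at least 1 at 5. IL12A, a subunit of IL12, had highest signals of 31 and 38 with a score of 204 (ranks 73.3, 85.7 and 95.2). A peak covered its promoter in each library. IL12B, the subunit that IL12 shares with IL23, had signals of 18 and 38 with a score of 96 (ranks 35.9, 85.7 and 79.3), and these peaks began 816 to 824 bp from its annotated start. IL6, the acute-phase cytokine, carried separate peaks at both of its ends and a further one upstream, each in all 3 libraries. The region at the start had signals of 43 and 25 with a score of 89, and the Caki-1 replicate 2 peak in it began 35 bp past the start. At the far end of the gene the values were 37, 29 and 49 (ranks 81.5, 72.3 and 51.8). Upstream of the start (chromosome 7, 22717714 to 22718742) they were 29, 33 and 133 (ranks 69.7, 79.4 and 87.8).

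IL5, an eosinophil growth factor, had signals of 38 and 56 with a score of 135 (ranks 82.6, 95.7 and 88.2), but the peak also lay at an end of RAD50, a DNA repair gene, and cannot be assigned to either. IL32 had signals of 29 and 15 with a score of 46 (ranks 69.7, 24.2 and 47.7). IL18, a relative of IL1, had 13, 25 and 59 (ranks 10, 62.7 and 60.2). The ranks of IL18 and IL32 thus differed widely between libraries.

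Among the chemokines, 3 of the 6 neutrophil-attracting CXC genes carried gene-end peaks in every library, each over the promoter. CXCL3 had signals of 24 and 27 with a score of 129, at ranks of 58.1, 67.7 and 87.1. CXCL1 had 33, 21 and 42, with ranks of 76.4, 50.1 and 43.6. CXCL2 had 27, 16 and 47, with ranks of 65.6, 29.0 and 48.7. CXCL1 and CXCL2 thus ranked highest in 786-O and CXCL3 in Caki-1 replicate 2. Of the CC chemokines, CCL20 and CCL17 had gene-end peaks in all 3 libraries. CCL20, which attracts cells bearing CCR6, had signals of 56 and 31 with a score of 124 (ranks 94.2, 76.2 and 86.2), with peaks 4145 to 4239 bp from its annotated start, at the opposite end of the gene. CCL17, a ligand of CCR4, had 32, 35 and 54 (ranks 74.9, 82.2 and 56.3), also at its higher end, and its start was not given.

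Gene-end peaks of members ranked lower than gene-end peaks of all genes. Their median rank was 69.7, 62.7 and 60.2 over 30, 23 and 25 peaks, against 82.6, 79.4 and 80.8 over all gene-end peaks. Ranks over 90 were held by 3 of the 30 peaks in 786-O, 2 of the 23 and 4 of the 25, which is 10%, 8.70% and 16%. Of all gene-end peaks 32.9%, 30.9% and 32.4% ranked that high, and of all peaks 9.74%, 10.3% and 10%. Outside Caki-1 replicate 2, members' gene-end peaks thus reached a high rank about as often as peaks at large.

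A peak at the gene end in 786-O but neither Caki-1 library was found at 7 members (8.24%, against 4.03% of all genes). IL10, an interleukin that restrains inflammation, had a signal of 36 (rank 80.3) and IL11, a relative of IL6, one of 30 (rank 71.5). IL21R, IL23A, CCL24, CCL26 and IL21 had signals of 12 to 17 and ranks of 5.35 to 31.3. IL21, CCL24 and CCL26 also had no Caki-1 peak within 5 kb of an end. IL10 had one of replicate 2 inside that distance, and IL11, IL21R and IL23A had peaks of both replicates. The peak of IL10 lay 3933 bp from the nearest of its annotated starts, and that of IL11 over its start.

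The opposite pattern, both Caki-1 libraries and not 786-O, was found at 1 member, CXCL6, against 7.08% of all genes. CXCL6, a ligand of the neutrophil receptor CXCR2, had a signal of 14 in replicate 1 (rank 19.3) and a score of 41 in replicate 2 (rank 41.7), with no 786-O peak within 5 kb of an end. A further 5 members had a gene-end peak in a single Caki-1 library, against 5.64% of all genes. IL1A, an alarm signal of damaged epithelium, had a score of 61 in replicate 2 (rank 61.6) over its start, and the rest (IL19 and CCL3 in replicate 2, IL4 and the higher end of IL17D in replicate 1) had ranks of 2.07 to 29.0. The last 6 of the 34 members with any gene-end peak had it in 786-O and 1 Caki-1 library. These were CXCL5 (21 in 786-O, 76 in replicate 2), CCL21 (17 and 107), IL17B (40 and 32), IL17C (26 and 23), IL16 (31 in 786-O, 21 in replicate 1) and CCL5 (12 in both). CCL5 and CCL3 ranked no higher than 9.42 in any list. CCL3 has a near-identical copy, CCL3L3, and how reads were assigned between them was not tested.

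Member promoters also carried the mark less often than promoters of all genes, and they held fewer CpG. RefSeq promoter sequences were found for 63 of the 85 members, with 82 promoters. A peak overlapped 10 of the 82 promoters in all 3 libraries (12.2%), against 37.2% of the promoters of all genes, and 19 in at least 1 library, against 56.2%. The 10 belong to CXCL1, CXCL2, CXCL3, IL6, IL6R, IL7R, IL12A, IL32 with 2 promoters, and an internal start of CCL28, a mucosal chemokine. Within 1 kb of an annotated start, 18 of the 63 members had a peak in 786-O (28.6%), against 55.3% of all genes with a promoter entry. The 2 Caki-1 libraries had one at 13 (20.6%) and 18 (28.6%), against 58.1% and 60.3%. It was found in all 3 libraries at 11 (17.5%), against 47.7%, and in none at 40 (63.5%), against 33%. The median member promoter held 4 CpG dinucleotides, against 21 over all promoters. In member promoters with a peak in all 3 libraries the median was 22, and in those with none 4.

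Within classes of CpG number, which were added after seeing the data, the shares lay closer together. Of member promoters with 0 to 9 CpG, 4 of 67 (5.97%) had a peak in all 3 libraries, against 5.87% of all promoters with as few. Of those with 20 or more, 6 of 12 (50%) had one, against 54.4%. In the class from 10 to 19 CpG members have only 3 promoters, with a peak in all 3 libraries at 0 of them, against 38.7%. A peak in at least 1 library overlapped 17.9%, 33.3% and 50% of member promoters in the classes from low to high, against 19.6%, 59.1% and 76%. The 6 promoters of 20 or more CpG with no peak in any library were those of IL4R (42), CXCL12 (39), IL13 (37), CXCL14 (31) and IL17D (29 and 43). At IL17D, a cytokine of the IL17 family, a region covered in all 3 libraries lay just past the promoter with 43 CpG (chromosome 13, 20704088 to 20704805), within 1 kb of that start. It had signals of 25 and 51 with a score of 224, at ranks of 60.9, 94.1 and 96.3. IL7R, IL6 and IL32 went the other way, with peaks in all 3 libraries over promoters of 0 to 7 CpG.

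**Figure D2:**
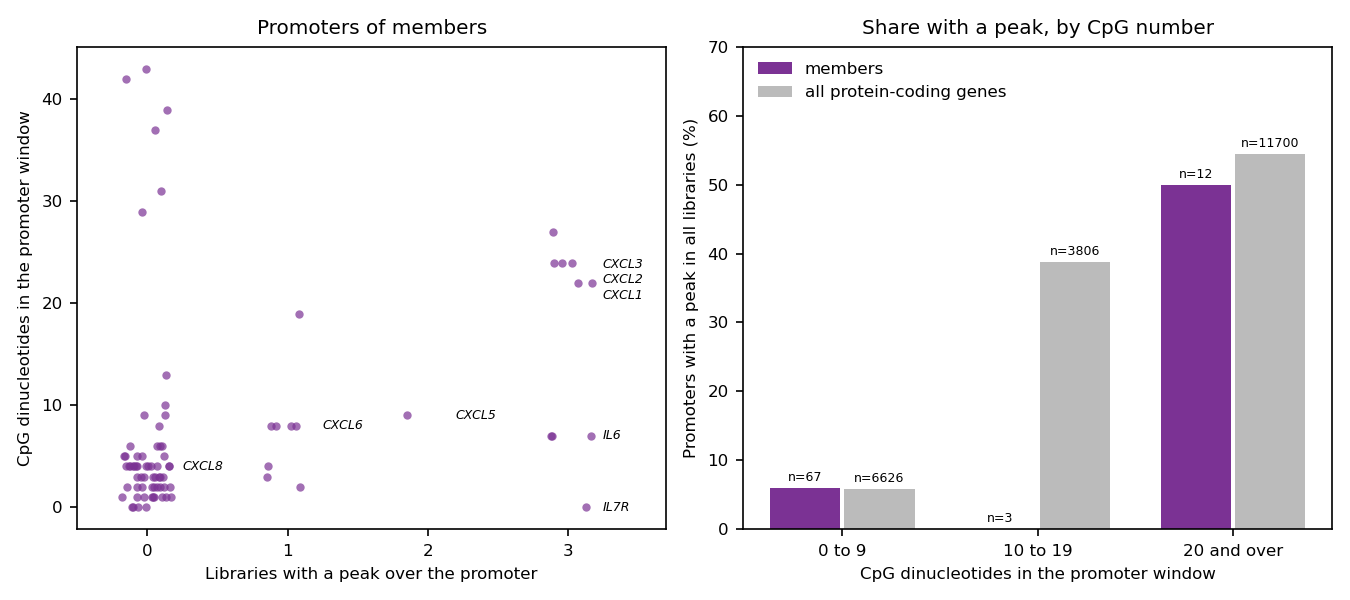
Left, number of CpG dinucleotides in each of 82 member promoters (vertical axis) by the number of libraries with a peak over it (horizontal axis, points spread sideways for legibility). Right, share of promoters with a peak in all 3 libraries (%) by CpG class, for members and for all protein-coding genes, with the number of promoters above each bar: the bars are at 5.97% and 5.87% in the lowest class and at 50% and 54.4% in the highest.

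The 6 neutrophil-attracting CXC promoters share a motif and differ in the mark. Each holds GGAATTTCC, the capitals in the lines printed above, between 77 and 91 bases before its start. A peak covered the promoters of CXCL1, CXCL2 and CXCL3 in 3 libraries, that of CXCL5 in 2, that of CXCL6 in 1 and that of CXCL8 in 0. They hold 22, 22, 24, 9, 8 and 4 CpG in the same order, so the number of CpG fell with the number of libraries. CXCL1, CXCL2 and CXCL3 are close copies of each other, with promoters identical at 72.1% to 82.5% of aligned positions. CXCL5 and CXCL6 are identical at 83.1%. The remaining pairs ranged from 42.6% to 52.6%, and these 6 promoters are therefore not independent cases.

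Over all member promoters, GGANNTTCC was found in 14 of 82 (17.1%), against 4.54% of all promoters of this length. It was found in 6 of the 10 with a peak in all 3 libraries and in 6 of the 63 with none. The 6 with a peak are those of CXCL1, CXCL2, CXCL3, IL6, IL7R and IL32. The CXCL promoters among them are close copies, so the 6 are not independent cases. Of all genes' promoters with a peak in all 3 libraries 5.07% held GGANNTTCC, and of those with none 4.05%. TATAAA was found in 26 member promoters (31.7%), against 9.46%, and 24 of the 26 had no peak in any library. TGANTCA was found in 19 (23.2%), against 6.15%, and 13 of the 19 had no peak. Of all 82 member promoters 63 (76.8%) had no peak, so the share with TATAAA lay above that and the share with TGANTCA below it. Over all genes, 1481 of 2094 promoters with TATAAA and 739 of 1361 with TGANTCA had none, against 43.8% of all promoters. IL12A holds none of the 3 motifs and 24 CpG, whereas CXCL8 holds all 3 and carried no peak. A match of letters is a description of the sequence and not a site of binding.

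Most of the mark near members lay away from their ends, but this was not special to members. Away from the ends of any protein-coding gene lay 195 of the 259 regions near members, against 102788 of all 116359. The share away from gene ends was thus smaller near members, although all regions include those outside every gene's 20 kb window. Of the 259 regions, 36 lay at a member's end alone and 1 at an end shared with another gene, 27 lay at the end of another gene, 86 within a member, 37 within another gene and 72 outside protein-coding genes. A peak lay within 20 kb of the gene span in 786-O at 63 members (74.1%), against 85.7% of all genes. In Caki-1 replicate 1 it was 57 members (67.1%), against 82.9%, and in replicate 2 it was 58 (68.2%), against 84.3%. All 3 libraries had one at 47 members (55.3%), against 77.1%, and none had one at 11 (12.9%), against 8.8%. Members are short, with a median length of 6.24 kb against 24.5 kb, so their windows are short too. Per Mb of merged windows they held 59.2 regions, against 56.2 over all genes.

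The members with the most regions were mainly long genes of the interleukin kind. IL7 had 17 regions, IL15 12, IL6R and IL34 11 each, IL21R 9, and CCL28, IL16 and IL19 8 each. IL17B and IL17C had 7 each, and IL17C is only 1.90 kb long, so all but 1 of its regions lie off its own end. The strongest region of the IL7 window belongs to the end of ZC2HC1A, with signals of 98 and 86 with a score of 413 and ranks of 99.3 to 99.6. That of IL17C lies between CYBA and MVD, with 87, 74 and 222. The window count of a member can therefore rest on its neighbours: of the 27 regions at other genes' ends 16 (59.3%) were covered in all 3 libraries, against 17 of the 86 within members (19.8%) and 13 of the 72 outside genes (18.1%).

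Several members carried regions within or beside the gene that all 3 libraries share. Inside IL6R, a region of chromosome 1 (154463069 to 154463865) had signals of 21 and 47 with a score of 215, with ranks of 48.2, 92.4 and 95.8. Another (154431602 to 154432501) had 38, 37 and 90. CCL28 had one over its internal start with 61, 19 and 66 and one upstream (chromosome 5, 43427488 to 43428616) with 55, 25 and 65, both of higher rank in 786-O (95.7 and 93.8) than in Caki-1 (42.3 to 65.3). CXCL13, which draws B cells, had one within its span (chromosome 4, 77579186 to 77580022) with 46, 17 and 137 (ranks 89.3, 33.7 and 88.5). Beyond the start of CXCL2, a region (chromosome 4, 74109181 to 74110323) had 45, 30 and 75, ranks of 88.7, 74.3 and 70.5, which are above those of the peak over the CXCL2 promoter in each list.

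The regions of members were divided among the libraries much as all regions were. All 3 libraries covered 66 (25.5%, interval 20.3 to 31.2), against 20.5% of all 116359 regions. Split by place, the order differed: of regions at the end of any protein-coding gene, all 3 libraries covered 32 of 64 near members (50%) and 56.5% of all 13571, and away from gene ends they covered 34 of 195 (17.4%) and 15.7% of all 102788. 786-O alone covered 63 (24.3%), against 24.5%. Both Caki-1 libraries without 786-O covered 27 (10.4%, interval 6.98 to 14.8), against 13.8%. Caki-1 replicate 1 alone covered 30 (11.6%, against 14%) and replicate 2 alone 44 (17.0%, against 18.7%). 786-O with 1 Caki-1 library covered 13 with replicate 1 (5.02%, against 3.51%) and 16 with replicate 2 (6.18%, against 5.1%). The 786-O count asks for 1 library and the Caki-1 count for 2, so these counts are not symmetric. Without Caki-1 replicate 2, replicate 1 covered 57 regions without 786-O, and without replicate 1, replicate 2 covered 71.

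**Figure D3:**
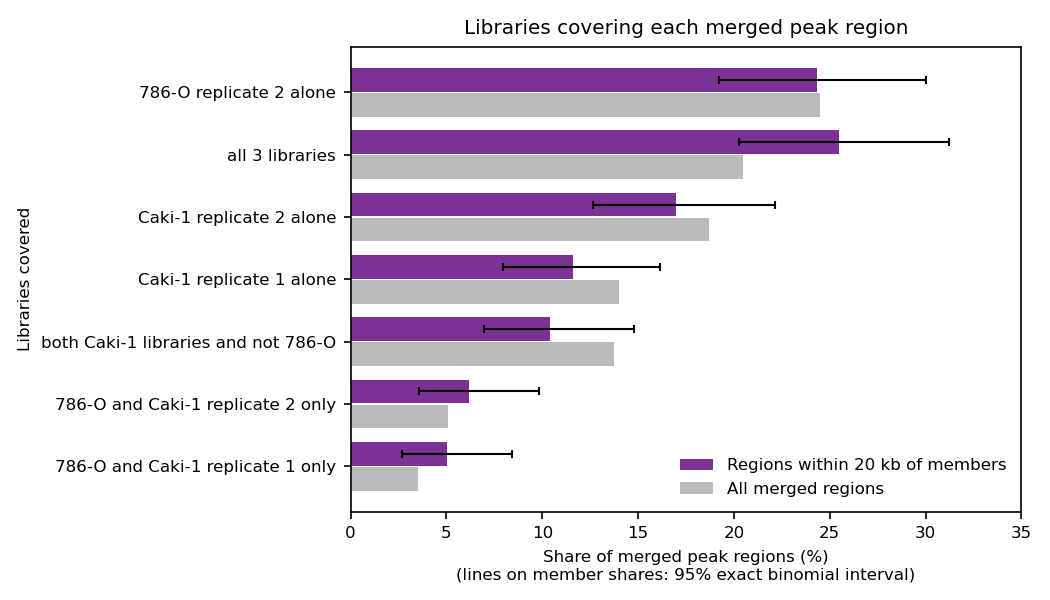
Share of merged regions (horizontal axis, %) by the libraries that cover them (vertical axis), for the 259 regions near members and for all 116359 regions, with lines for the 95% exact binomial interval of the member share. Regions in all 3 libraries make up 25.5% near members and 20.5% of all.

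Peaks near members were shared between the lines at 50% and 51.9% from 786-O to Caki-1 replicates 1 and 2, against 44.5% and 47.8% of all peaks. In the other direction 58.1% and 53.6% of the Caki-1 peaks overlapped a 786-O peak, against 46.0% and 43.9%. Between the Caki-1 replicates the shares were 67.6% and 60.1%, against 66.2% and 58.8%. Of these 6 member shares, the intervals of 2 lay wholly above the share of all peaks, those of Caki-1 replicate 1 (49.3 to 66.5) and replicate 2 (45.4 to 61.7) with 786-O. Counted from the 786-O side, the same overlaps gave intervals of 42.0 to 58.0 and 43.8 to 59.9, which include the shares of all peaks. The intervals take neighbouring peaks as independent, so they are not a test. These shares were not split by place, and member regions lie at gene ends, where sharing is higher, more often than regions at large.

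Of the regions in 786-O alone, the strongest was inside IL15 (chromosome 4, 141645688 to 141646125), where the signal was 54 and the rank 93.4. It lies among other regions of IL15, which had 12 in all and 3 in 786-O alone. Others lay near CCL28 (43, rank 87.2), 14.1 kb upstream of CXCL8 (chromosome 4, 73726148 to 73726455, 41, rank 85.5), near IL36G (37, rank 81.5), and 2.27 kb from CCL2 (chromosome 17, 34252195 to 34253014, 32, rank 74.9). CXCL8, the main neutrophil attractant of human epithelium, had no other region within 20 kb, and its nearest Caki-1 peaks lay 35.4 and 21.5 kb away. By gene, IL7 had 7 regions in 786-O alone, IL16 4, and CCL28, IL15 and IL21R 3 each.

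Of the regions in both Caki-1 libraries and not 786-O, the strongest by the lower of its ranks lay within IL4 (chromosome 5, 132676919 to 132677456), where the signal was 42 (rank 89.3) and the score 114 (rank 84.1). IL4 and its neighbour IL13, both signals of allergic inflammation, had no 786-O peak within 20 kb. IL7R carried one inside the gene (35859121 to 35859744) with 30 and 109, and IL17B one with 30 and 73. One beyond IL12A (chromosome 3, 160006229 to 160006983) had 25 and 144. CCL27, CXCL2, IL21R, IL23R and IL34 had 2 regions of this pattern each, the most of any member.

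By family, the lactylated regions were unevenly spread. The 7 genes of the IL6 and IL12 family all had a peak within 20 kb in each library, as did 5 of the 6 receptors, 7 of the 8 other CC chemokines and 6 of the 9 genes of the common gamma chain and haematopoietic group. Of all genes, 77.1% had one in each library and 8.8% had none in any. Some of these peaks lay at neighbouring genes. The Caki-1 peaks near IL23A lay at the ends of PAN2, APOF and STAT2, and all peaks near IL31 lay within LRRC43. Among the 10 genes of the macrophage inflammatory protein group only CCL5 had a peak in each library, and 5 had no region in any library. Of the 8 monocyte- and eosinophil-attracting CC chemokines none did, and 6 of their 7 regions were in 786-O alone. The interferon-induced CXCL9, CXCL10 and CXCL11, which attract T cells, had no gene-end peak, and their 4 regions lay in or at neighbouring genes. The members without a region were CCL4L2, CCL8, CCL11, CCL14, CCL15, CCL16, CCL23, CXCL12, CXCL17, IL17A and IL33. Over the kinds, 31 of 45 interleukin and receptor genes and 16 of 40 chemokines had a peak in each library within 20 kb, with median gene lengths of 8.69 and 3.09 kb.

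Several members lie in clusters of like genes, and the clusters differed in how many peaks the libraries shared. The cluster from CXCL8 to CXCL2 on chromosome 4 spans 358.6 kb with 6 members and 3 other genes (PF4V1, PF4 and PPBP). The 3 libraries had 11, 11 and 9 peaks within that span and 20 kb to either side. Per Mb of this interval that is 27.6, 27.6 and 22.6. The whole chromosome, stretches without genes included, held 15.3, 17.6 and 19.1. The merged 20 kb windows of all protein-coding genes held 30.9, 30.2 and 33.8. The cluster thus lay above its chromosome and below gene windows at large. Around IL3 to IL4 on chromosome 5, which also holds 7 other genes, the libraries had 36, 41 and 32 peaks, and 18 of the 59 regions were common to all 3. Most of these regions lay away from the members. The 20 kb windows of IL3, IL5, IL13 and IL4 held 3, 3, 3 and 4 regions, some shared by IL13 and IL4. Of these, 1, 2, 0 and 0 were common to all 3. Over all 116359 regions the share common to all 3 was 20.5%. Around IL1A to IL36B on chromosome 2 the libraries had 10, 6 and 9 peaks, with 2 of 19 regions common to all. Around IL10 to IL24 on chromosome 1 they had 4, 2 and 8, with 1 of 12 common to all.

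**Figure D4:**
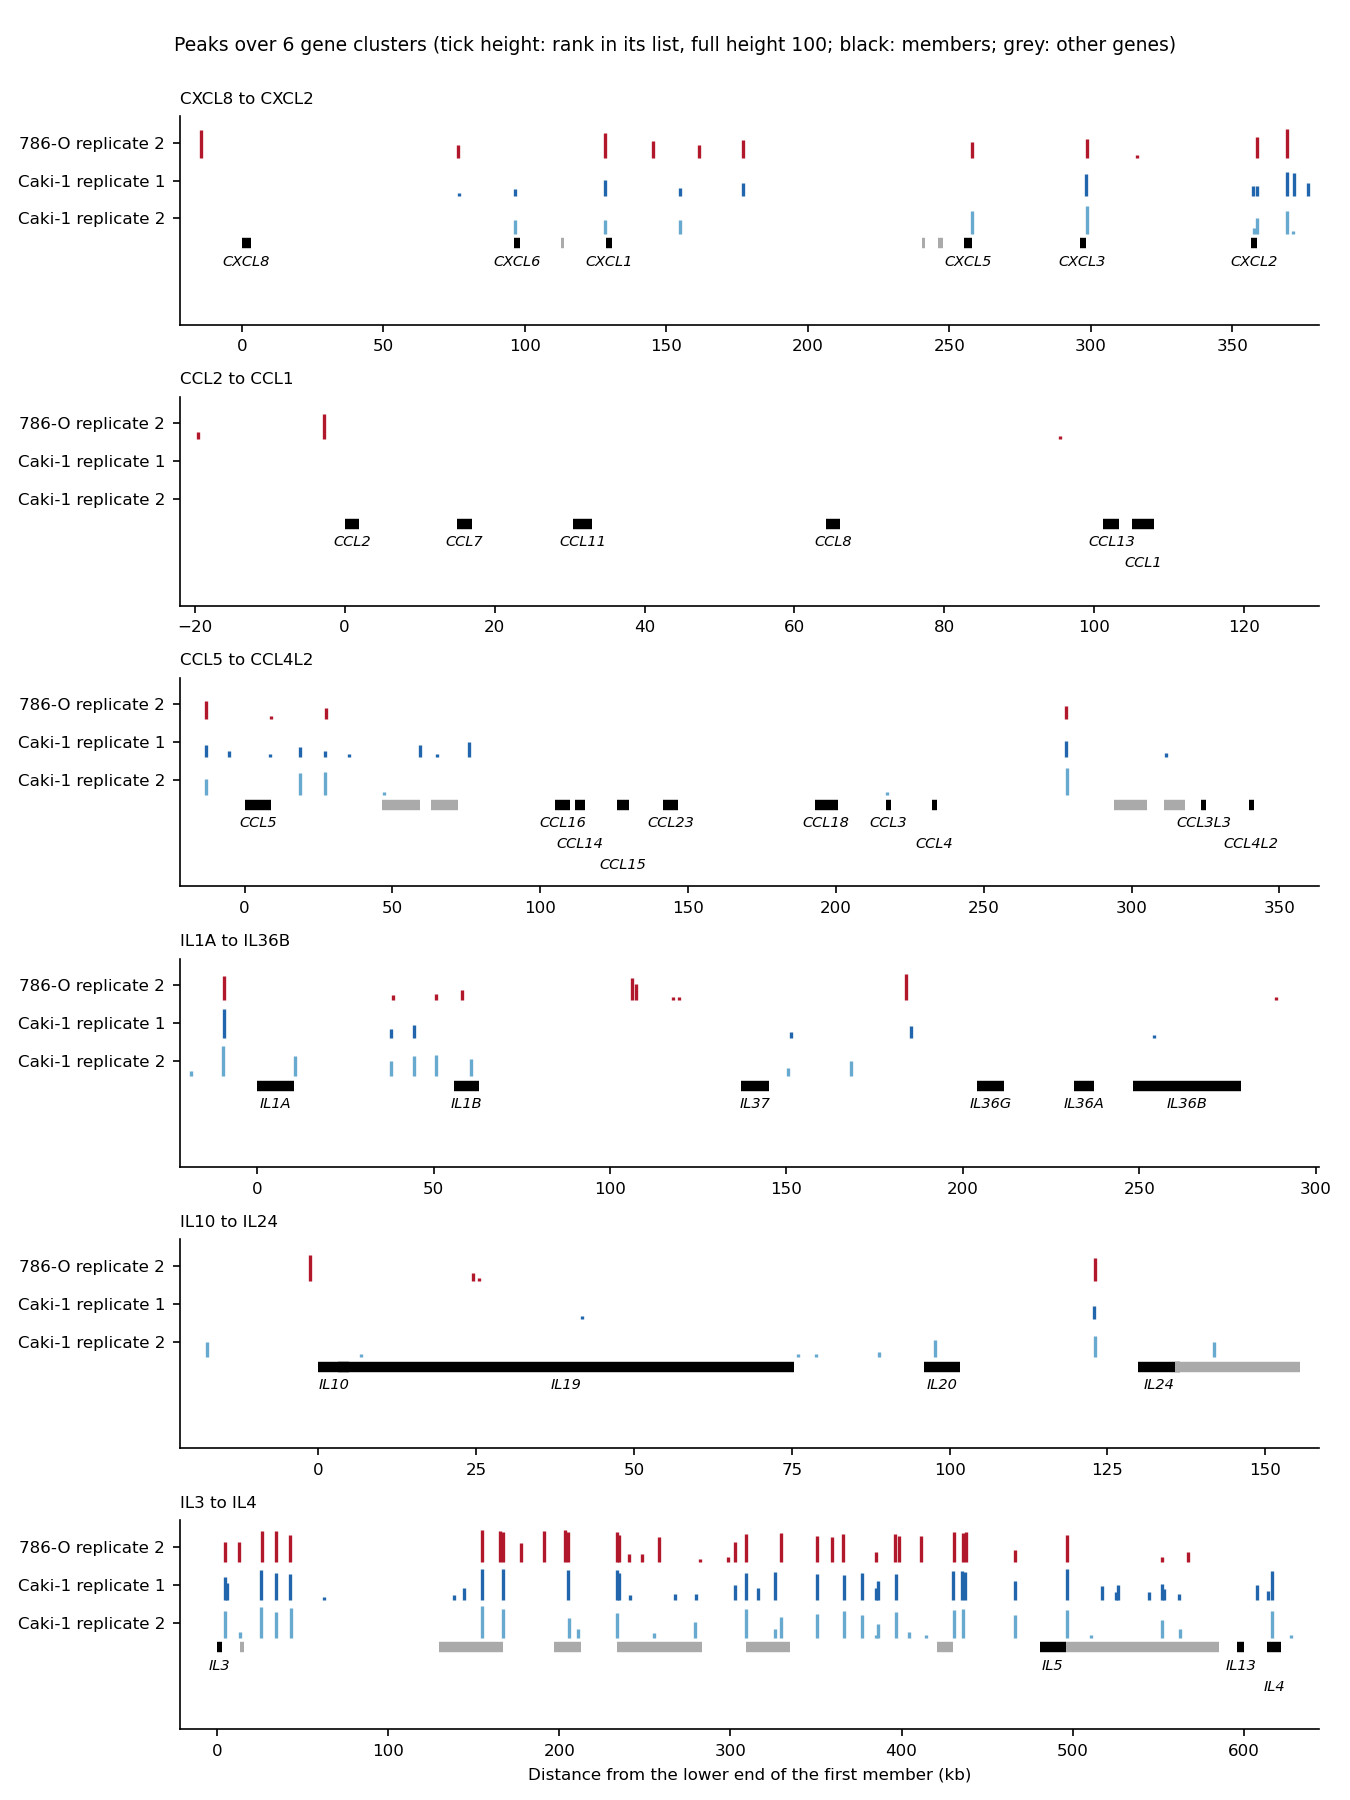
Peaks of the 3 libraries (1 row of ticks each, with height giving the rank in the list) over 6 clusters, with members as black bars and other genes as grey bars, by distance from the lower end of the first member (horizontal axis, kb). The row of 786-O holds 3 peaks around CCL2 to CCL1 and the rows of Caki-1 none.

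The CC chemokine clusters of chromosome 17 differed between the lines in their number of peaks. Around CCL2, CCL7, CCL11, CCL8, CCL13 and CCL1, the main monocyte and eosinophil attractants, 786-O had 3 peaks and both Caki-1 libraries had 0. The nearest peak of either Caki-1 library lay 704 kb from CCL2, against 2.27 kb in 786-O. These 6 genes sit in a stretch of 2083.6 kb (chromosome 17, 32877363 to 34960931) in which neither Caki-1 library had a peak and 786-O had 37. The stretch holds 11 protein-coding genes, and 1 of them carried a gene-end peak of 786-O. Absence of Caki-1 peaks was therefore a feature of the whole stretch and not of the chemokine genes alone. In the neighbouring cluster from CCL5 to CCL4L2 the order of the counts was reversed, with 4 peaks of 786-O against 11 and 6 in Caki-1. No region there was covered by 786-O alone. This interval also takes in 4 other genes, and the 20 kb window of CCL5 held 3, 5 and 3 of the peaks. Per Mb the interval held 10.5, 28.8 and 15.7 peaks. The whole of chromosome 17 held 26.3, 32.2 and 36.1, so every library lay below its chromosome, and 786-O was the lowest there too. CCL3 and CCL4 have near-identical copies in that cluster, CCL3L3 and CCL4L2, so their peaks are uncertain.

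CXCL12, the ligand of CXCR4, and CXCL17, a mucosal chemokine, lay in stretches of the same kind. The stretch without a Caki-1 peak was 1215.4 kb long around CXCL12 on chromosome 10 and held 26 peaks of 786-O, none of them within 20 kb of the gene. Around CXCL17 on chromosome 19 it was 1056.2 kb long and held 11. CXCL17 lay near an edge of its stretch, with its nearest peaks 30.6 kb away in 786-O and 30.9 and 21.1 kb away in Caki-1 replicates 1 and 2. For CXCL12 these distances were 58.9, 505.7 and 479.5 kb. Of 88179 stretches between neighbouring Caki-1 peaks on all chromosomes, 197 (0.223%) were at least 1000 kb long, and the median was 11.7 kb. Genes wholly inside such stretches were 569 of all 19839 (2.87%) and 8 of the 85 members (9.41%), and 6 of these 8 are the neighbours of the CCL2 stretch. Of the 63 regions in 786-O alone, 3 lay there. The measure was chosen after seeing the distances of these genes.

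Genes that work with the members were described from a list of 75, chemokine and interleukin receptors, further ligands and signalling chains whose symbols the rule does not take. A gene-end peak in all 3 libraries was found at 14 (18.7%, against 44.6% of all genes) and in none at 44. Among receptor chains, IL6ST, which relays the signal of the IL6 family, had signals of 30 and 43 with a score of 215. OSMR, which pairs with it, had 63, 52 and 156, and IL1RAP, the shared chain of IL1 receptors, had 61, 49 and 180. IL17RA had 63, 36 and 116 (ranks 96.1, 83.5 and 84.5), and IL15RA, which presents IL15, had 48, 26 and 103 (ranks 90.5, 65.3 and 81.3). Of the other chains of the IL15 receptor, IL2RB had no gene-end peak and IL2RG had one in both Caki-1 libraries only (12 and 18, ranks 9.42 and 2.89). IL1R1, the signalling receptor of IL1, had a gene-end peak in the Caki-1 libraries only (42 and 180, ranks 89.3 and 93.5), as did TSLP, an epithelial cytokine (35 and 154, ranks 82.2 and 91.0). Of the chemokine receptors, CCR10, which binds CCL27 and CCL28, had one in each library (54, 27 and 54, ranks 93.4, 67.7 and 56.3). CXCR1, CXCR2 and CXCR4 had none.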

How the data were processed

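CUT&Tag for H4K12la was done on untreated 786-O and Caki-1 cells, and 1 deposited peak list of 786-O and 2 of Caki-1 were used. Peaks were called per library, since each library has its own list. fastp 0.19.6, Bowtie2, deepTools and the builds GRCh38 and hg38 are named without roles, per the submitters' processing notes, and no source used here gives the peak caller, its threshold or the depth. The lists have no header. The last column was read from its values as the authors' deposited signal in the lists of 786-O and Caki-1 replicate 1, and as the authors' deposited score in that of Caki-1 replicate 2, whose lowest value is 13. It was used only as a percentile rank within a list, ties at their mean.

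Peaks were matched to RefSeq genes of GRCh38 with intervaltree 3.1.0, pandas 2.3.3 and Python 3.11.15. A peak counted for a member within 20 kb of the gene span, and as a gene-end peak within 1 kb of either end. Shares carry exact binomial intervals, which cover counting error only. Counting was tested on simulated peaks. Text names every member with a gene-end peak, those with the most regions, those without any and the clusters, which are members of one kind with gaps of at most 500 kb. The members and lists were chosen with earlier results of these data known. Alternatives were other windows, the upper 50% of each list, stricter overlap, other gene-end distances and leaving out each Caki-1 replicate.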

Additional observations from a re-analysis of the deposited data

How the results depend on the processing

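Of 40 recomputed counts, 25 stayed within 1.5 times the reported one and 15 did not, and the latter follow from how the alternatives are built: other window sizes and fewer peaks or libraries. With windows of 5 kb in place of 20 kb the regions numbered 152 in place of 259, with 42 in every library (66), 37 in 786-O alone (63) and 12 in both Caki-1 libraries without 786-O (27). With 50 kb they numbered 417, with 111 in every library and 97 of 786-O alone. With the upper 50% of each list there were 138 regions, 37 in every library, 31 in 786-O alone and 13 in both Caki-1 libraries only. Under that setting 29 members had a peak in their window in all 3 libraries (47) and 9 a gene-end peak (15). The share of regions in all 3 libraries was then 26.8%, against 24.9% of all regions, a narrower gap than 25.5% against 20.5%. Leaving out either Caki-1 replicate gave 57 to 71 regions in Caki-1 without 786-O. Gene ends taken within 500 bp or 3 kb gave 13 or 22 members with a peak in all 3 libraries, and annotated starts gave 11 of 63. Leaving out receptor and copy genes gave 13. No paired analysis was possible because the lines share a single replicate number here and no result comes from a test. 786-O has 1 library, so none of its values has a replicate error, and the unknown depth limits every statement that a peak is missing.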
